A study of Mus musculus with 2 samples.

Results

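The genes described here are the 3 neurofilament subunits *Nefl*, *Nefm* and *Nefh*, the related filament gene *Ina*, the neuronal tubulin *Tubb3* and the growth cone gene *Gap43*. They were taken by name as 6 of the 14425 genes listed in a single-cell RNA table of mouse spiral ganglion neurons, the cells that carry sound signals from the cochlea to the brain. The table holds 1 control library (iCON, 462 cells) and 1 library from mice with a floxed *Runx1* allele (iCKO, 407 cells). The iCON mice were *Runx1*-CreER/+; Ai14/+, and the iCKO mice carried *Runx1*-CreER over *Runx1*F with Ai14/+. Both groups thus had the Ai14 tdTomato reporter and a Cre driven from *Runx1* that tamoxifen activates, and both were given tamoxifen on postnatal day 1. Cochleae of both sexes were taken on postnatal days 27 to 29, and tdTomato-positive neurons were sorted, so neurons that never used the driver are outside the data. The number of animals pooled in each library is not given in the sources used here, and every difference between the libraries has no replicate check.

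Neurofilaments are the intermediate filaments of neurons. They assemble from a light (*Nefl*), a medium (*Nefm*) and a heavy (*Nefh*) chain together with alpha-internexin (*Ina*), they fill large axons, and their amount and phosphorylation go with axon calibre. The tails of the medium and heavy chains carry repeats of lysine, serine and proline, whose serines are phosphorylated in the axon. *Tubb3* encodes a beta-tubulin of neuronal microtubules, and *Gap43* encodes a membrane protein of growing axons and of some mature endings. Type I spiral ganglion neurons contact inner hair cells through thick myelinated fibres, and include subtypes marked by *Calb2* (calretinin, type Ia) and by *Lypd1* (type Ic). The rarer type II neurons contact outer hair cells through thin fibres without myelin.

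The heavy chain stands apart in its coding sequence, which is shown because *Nefh* had the largest difference in level between the libraries among the 3 subunits. In the GENCODE M21 transcripts the coding sequence has 543 codons in *Nefl*, 848 in *Nefm* and 1090 in *Nefh*, and it holds 0, 4 and 51 runs of codons for lysine, serine and proline. The runs of *Nefh* lie between codons 522 and 887, and those of *Nefm* between codons 501 and 609. *Ina*, with 501 codons, *Tubb3*, with 450, and *Gap43*, with 227, hold none. The lines give 40 codons of the tail of the heavy chain (codons 521 to 560, 7 runs) and 40 of the tail of the medium chain (codons 468 to 507, 2 runs). They read 5′ to 3′, with the lysine, serine and proline runs in capitals.
Nefh: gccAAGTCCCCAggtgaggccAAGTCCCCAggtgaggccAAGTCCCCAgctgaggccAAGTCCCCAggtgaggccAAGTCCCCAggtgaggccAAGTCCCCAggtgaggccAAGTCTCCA
Nefm: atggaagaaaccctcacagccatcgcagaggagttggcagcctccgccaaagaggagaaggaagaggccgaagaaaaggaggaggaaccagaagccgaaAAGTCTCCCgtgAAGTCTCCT

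On the GRCm38 build *Nefl* lies on chromosome 14 from 68083863 to 68089095 on the plus strand. *Nefm* is annotated on the minus strand of the same chromosome from 68082590 to 68124846, a span that contains *Nefl*. Whether the counting used strand is not given in the sources used here, so the assignment of reads between *Nefl* and *Nefm* is uncertain to that extent. *Nefh* lies on chromosome 11 (4938754 to 4948064, minus strand) and *Ina* on chromosome 19 (47014698 to 47025327, plus strand). *Tubb3* lies on chromosome 8 (123411424 to 123422015, plus strand) and *Gap43* on chromosome 16 (42248442 to 42340651, minus strand). All 6 are annotated as protein-coding.

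The iCON library held 22011292 UMIs (unique molecular identifiers, each one counted RNA molecule) with a median of 49725.5 per cell, and the iCKO library 13743824 with a median of 33602. Of 6 neuronal genes, *Snap25*, *Uchl1* and *Elavl3* had UMIs in 100% of cells of both libraries. *Thy1* had them in 94.2% of iCON and 98.3% of iCKO cells, *Rbfox3* in 84.8% and 79.9%, and *Syt1* in 11.5% and 4.67%. *Runx1*, the targeted gene, averaged 0.867 UMIs per 10000 in iCON cells and 1.12 in iCKO cells, so its RNA did not fall in the direction of the labels. A 3′ assay need not register the loss of an internal exon, and whether that applies here was not tested. *Xist* cells, in which no Y-linked gene was detected, made up 54.5% of iCON and 78.4% of iCKO, and 22.3% and 37.8% of cells had low myelin-gene RNA (under 3 UMIs per 10000). All 7 myelin genes were lower in iCKO, and the median of their sum was 41.4 per 10000 in iCON and 26.1 in iCKO. *Calb2* had a median of 28.8 per 10000 in iCON cells and 123 in iCKO cells. These differences are set beside the neurofilament values where they were measured together. Levels are means over cells of UMIs per 10000 UMIs of the cell. A 3′ UMI count is not divided by gene length, and how well the 3′ end of each gene was captured was not measured here, so the shares of the subunits are shares of counted UMIs.

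The neurofilament subunits were among the most abundant RNAs of these neurons, and the heavier chains were higher in iCKO. The summed level of *Nefl*, *Nefm* and *Nefh* was 129 per 10000 in iCON (SD over cells 36.2, median 128.7) and 176 in iCKO (SD 36.2, median 175), a log2 ratio of 0.45. The 3 genes together took 1.33% of all UMIs in iCON and 1.78% in iCKO. *Nefh* was higher by 0.71 on the log2 scale and *Nefm* by 0.49, while *Nefl* was higher by only 0.07. *Ina* was higher by 0.51 and *Tubb3* lower by 0.08, and *Gap43* was near the limit of detection in most cells of both libraries.

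The heavy chain gene *Nefh* ran from 5.34 to 111 per 10000 over iCON cells, with a median of 44.0, and from 28.7 to 124 over iCKO cells, with a median of 72.9. The ranges overlapped, but 95.8% of iCKO cells lay above the iCON median and 66.8% above the level that 95% of iCON cells stayed under. The means were 44.3 (SD over cells 13.9) and 72.5 (SD 15.99). From summed UMIs, 100451 in iCON and 100875 in iCKO, the log2 ratio was 0.69, with a counting interval of 0.67 to 0.70. Intervals here are exact at 95%, apart from those of share differences. All cover counting error only, not differences between animals or preparations. *Nefh* ranked 9th among all genes by mean level in iCON and 6th in iCKO.

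The medium chain gene *Nefm* ran from 5.28 to 107 per 10000 in iCON (median 39.1) and from 10.9 to 109 in iCKO (median 56.2). Most iCKO cells, 89.2%, were above the iCON median, and 30.0% were above the level that 95% of iCON cells stayed under. Its means were 41.0 (SD 14.8) and 57.6 (SD 16.3). The light chain gene *Nefl*, around which the others assemble, ran from 11.9 to 85.9 in iCON (median 43.5) and from 16.5 to 76.6 in iCKO (median 45.6). Here the libraries overlapped almost fully, with 58.7% of iCKO cells above the iCON median. The means were 43.6 (SD 11.7) and 45.9 (SD 9.76), and the ratio of summed UMIs was 0.04 on the log2 scale (0.02 to 0.05).

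*Ina* was much less abundant than the 3 chains of the triplet. It ran from 0 to 6.20 per 10000 in iCON (median 2.95) and from 0.940 to 9.55 in iCKO (median 4.23). Its means were 3.04 (SD 1.08) and 4.37 (SD 1.51), and 82.8% of iCKO cells were above the iCON median. Set against the triplet, there were 2.32 *Ina* UMIs per 100 neurofilament UMIs in iCON and 2.46 in iCKO, so *Ina* and the sum of the 3 chains had similar ratios between the libraries.

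*Tubb3* ran from 1.13 to 25.6 per 10000 in iCON (median 11.9) and from 0.997 to 21.8 in iCKO (median 11.0). Its means were 11.8 (SD 3.96) and 11.1 (SD 3.25), so the libraries differed by a small part of the spread over cells. *Gap43* had 146 UMIs in all iCON cells and 58 in all iCKO cells, with a median of 0 in each and maxima of 2.25 and 3.39 per 10000. It was below the minimum set for comparing single genes, a mean of 0.5 per 10000 with detection in 25% of cells of a library. Its means were 0.0829 and 0.0505. At 20000 UMIs per cell, 10.4% of the iCON library (7.71 to 13.5) had a *Gap43* UMI. The share in the iCKO library was 6.17% (4.03 to 8.98), and the shares before thinning were 16.5% and 9.83%. Those UMIs were unevenly spread over cells, as the values for cells with type II marker RNA show.

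**Figure D1:**
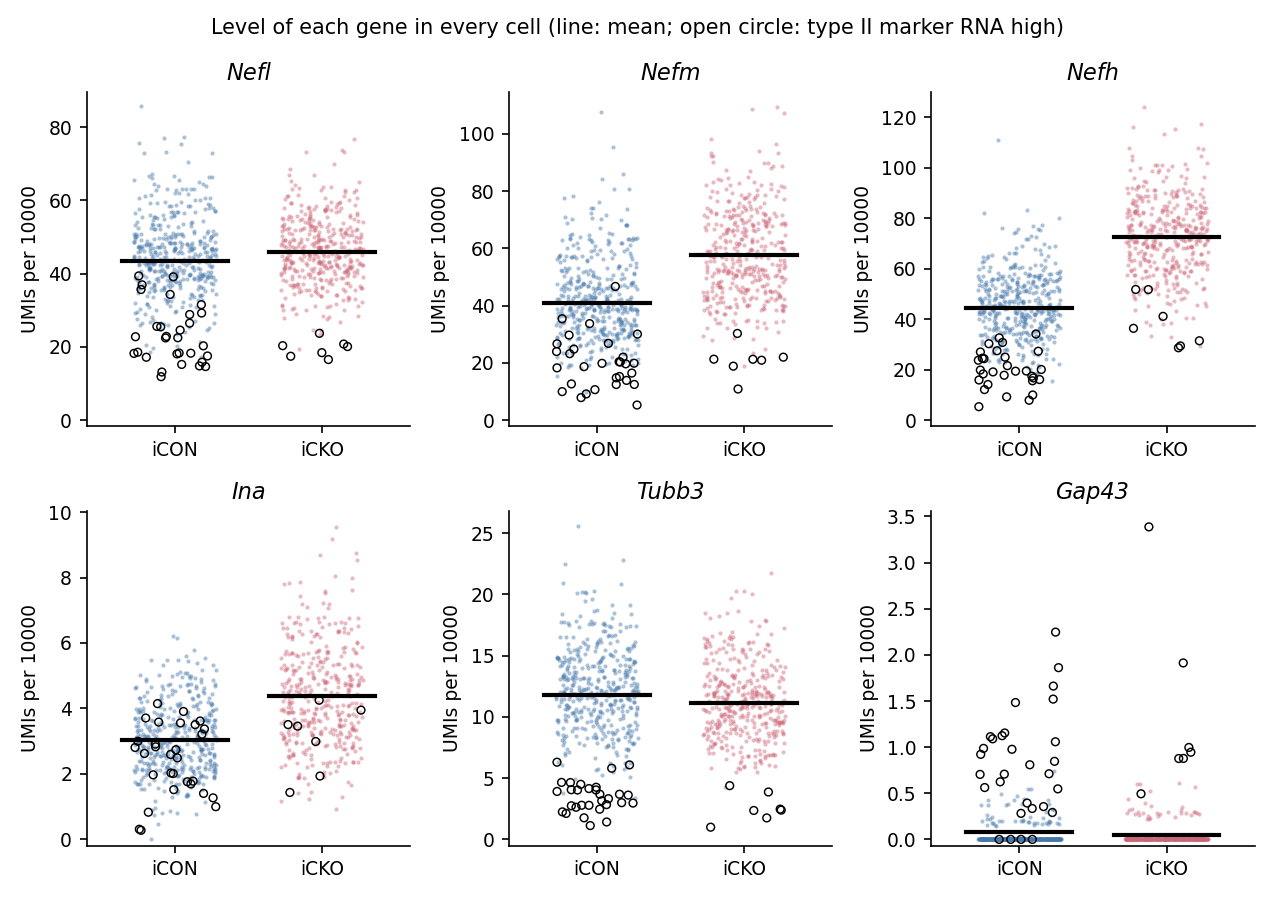
Level of each of the 6 genes in every cell, in UMIs per 10000 (y axis, linear, a separate scale in each panel), for the iCON and iCKO libraries. Points are cells, thick lines are means, and open circles are the 30 iCON and 7 iCKO cells of high type II marker RNA; *Nefh* shows the clearest shift between the libraries, with means of 44.3 and 72.5, while *Nefl* and *Tubb3* overlap.

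Among the 3761 genes past the minimum, 1.62% were higher in iCKO by at least 0.5 on the log2 scale and 2.74% were lower by as much. Of the 6 genes, 2 were higher past that fold, *Nefh* and *Ina*, and 0 were lower. *Nefm*, at 0.49, lay just under it. *Nefh* was past the fold in each alternative setting. In the highest of the *Calb2* classes compared below, which is not one of these settings, the *Nefh* ratio of 0.42 was under the fold. *Ina*, at 0.51, fell short of it at 0.47 when cells were thinned to equal depth, at 0.497 in *Xist* cells and 0.46 in those without type II marker cells, and at 0.44 at high myelin-gene RNA. It was also short at 0.37 with equal weight for the *Lypd1* and *Calb2* classes, at 0.46 with a pseudocount of 0.5 and at 0.496 from summed UMIs. The ratio of *Nefh* stood at percentile 99.4 among all genes past the minimum, that of *Ina* at 98.5, *Nefm* at 98.3, *Nefl* at 64.2 and *Tubb3* at 33.1. Over all 14425 listed genes, with no minimum, 0.977% were higher and 2.41% lower by that fold. The median over the 6 genes was 0.28, beside 0.01 over all genes past the minimum.

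The make-up of neurofilament RNA differed between the libraries, away from the light chain and towards the heavy chain. In iCON the 3 subunits were nearly equal, with *Nefl* at 33.9% of their 293644 UMIs (exact binomial interval 33.7 to 34.0), *Nefm* at 31.9% (31.8 to 32.1) and *Nefh* at 34.2% (34.0 to 34.4). In iCKO *Nefl* was 26.0% of 245080 UMIs (25.8 to 26.1), *Nefm* 32.9% (32.7 to 33.1) and *Nefh* 41.2% (41.0 to 41.4). The share of *Nefh* was thus 6.95 percentage points higher in iCKO (6.58 to 7.32), that of *Nefl* differed by -7.89 points (-8.23 to -7.54), and that of *Nefm* by 0.94 points (0.58 to 1.29). The intervals of these differences were taken between opposite ends of the intervals of the shares, so they are wider than exact 95% intervals. Shares add to 100%, so a higher share of one chain requires a lower share of another.

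The same contrast appeared cell by cell. The share of *Nefh* in a cell had a median of 34.3% in iCON, with 90% of cells between 25.3 and 42.9%, and a median of 41.2% in iCKO, with 90% between 33.7 and 48.6%. In 93.9% of iCKO cells it was above the iCON median. *Nefh* was the most abundant of the 3 in 41.3% of iCON cells and 86.5% of iCKO cells, while *Nefl* was the most abundant in 39.2% and 3.69%. There were 1.01 *Nefh* UMIs per *Nefl* UMI in iCON and 1.58 in iCKO, and 0.943 and 1.27 *Nefm* UMIs per *Nefl* UMI.

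The same ratios were computed with depth equalised by thinning and within a window of depth. When cells were thinned to 20000 UMIs each, leaving 454 in iCON and 405 in iCKO, the log2 ratio was 0.70 for *Nefh*, 0.50 for *Nefm*, 0.06 for *Nefl*, 0.47 for *Ina* and -0.08 for *Tubb3*. The share of *Nefh* then differed by 6.67 points. The window of 30000 to 50000 UMIs held 187 iCON cells with a median of 43103 UMIs and 292 iCKO cells with a median of 35319, so it narrowed the gap in depth without closing it. In it the summed triplet had a log2 ratio of 0.59 and the *Nefh* share differed by 6.46 points. Within a library deeper cells held relatively more neurofilament RNA, with a rank correlation (Spearman's rho) between original depth and the thinned triplet level of 0.45 over 454 iCON cells and 0.32 over 405 iCKO cells. Without the cells of high type II marker RNA, which were shallower (in iCON a median of 31229 against 50564.5 UMIs) and low in the triplet, it was 0.35 and 0.29.

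Neurofilament levels also followed the type I subtype markers within each library. Cells were divided by *Calb2* at 10 and 100 per 10000, and the summed triplet was higher at each step in both libraries. In iCON it was 108 (SD 31.4, 172 cells) below 10, 129 (SD 24.9, 204 cells) from 10 to 100 and 169 (SD 32.7, 86 cells) at 100 or more. In iCKO it was 135 (SD 39.4, 38 cells), 162 (SD 26.6, 142 cells) and 192 (SD 31.3, 227 cells). The lowest class holds all 30 iCON and all 7 iCKO cells of high type II marker RNA, which have little neurofilament RNA. Without them the lowest class had 117 in 142 iCON cells and 147 in 31 iCKO cells.

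Without the cells of high type II marker RNA, the log2 ratio of the highest over the lowest *Calb2* class in iCON was 0.69 for *Nefm*, 0.55 for *Nefh*, 0.51 for *Ina* and 0.37 for *Nefl*. In this contrast 3.96% of all genes past the minimum were higher past the fold and 4.47% lower, while 3 of the 6 genes, *Nefm*, *Nefh* and *Ina*, were higher past it. *Tubb3* had -0.08. *Gap43* had -0.85 from very few UMIs and did not pass the minimum. In iCKO, where the background was 4.04% higher and 4.33% lower, the ratios were 0.53 for *Nefm*, 0.34 for *Nefh*, 0.57 for *Ina*, 0.26 for *Nefl* and -0.04 for *Tubb3*. Only *Nefm* and *Ina* passed the fold there, and whether the slopes differ between the libraries was not tested.

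*Lypd1*, the marker of the type Ic end of this axis, ran the other way. Without the cells of high type II marker RNA, the triplet was 147 (SD 32.5) in 226 iCON cells with *Lypd1* under 1 per 10000 and 118 (SD 25.1) in 180 cells with 10 or more, a log2 ratio of -0.31. In iCKO it was 186 (SD 33.7) in 254 cells and 163 (SD 28.8) in 126 cells, which gives -0.19. The size of the iCON contrast depended on which cells entered. It was -0.21 over all cells, -0.13 in *Xist* cells and -0.023 in cells of low myelin-gene RNA. The iCKO contrast was -0.17 over all cells and -0.11 at low myelin-gene RNA. Without the cells of high type II marker RNA, in iCON the ratios were -0.42 for *Nefm*, -0.38 for *Ina*, -0.33 for *Nefh* and -0.18 for *Nefl*, and *Tubb3* had 0.03. Of the 6 genes, 0 passed the fold in either direction in either library, beside 2.42% of genes lower and 2.05% higher in iCON, and 1.68% lower and 2.02% higher in iCKO. *Lypd1* and *Calb2* are themselves opposed, with a rho of -0.66 over iCON cells and -0.68 over iCKO cells (-0.81 and -0.71 without the type II marker cells), so these are not separate observations.

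**Figure D2:**
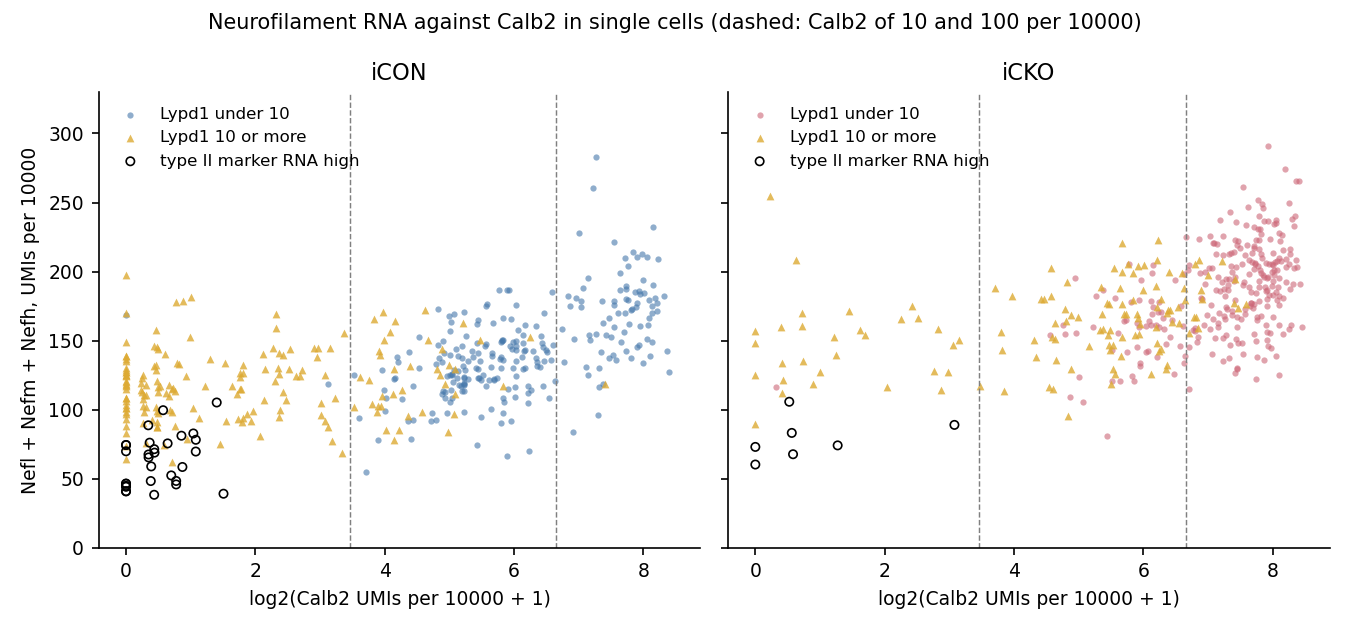
Summed *Nefl*, *Nefm* and *Nefh* (y axis, UMIs per 10000) against *Calb2* (x axis, log2 of UMIs per 10000 plus 1) in every cell of iCON and iCKO. Triangles are cells with *Lypd1* of 10 or more per 10000, open circles are cells of high type II marker RNA and dashed lines mark *Calb2* of 10 and 100. The level climbs from left to right in both libraries, to means of 169 and 192 in the highest class. Type II marker cells are lower on average but overlap the others. They reach up to 105 in iCON and 106 in iCKO, where the other cells start at 54.6 and 81.3.

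The libraries differed in how many cells stood at each *Calb2* level, so they were compared within classes of *Calb2*. At 100 or more *Calb2* per 10000, where the *Calb2* medians were close (209.5 in iCON and 203 in iCKO), the triplet had a log2 ratio of 0.18, *Nefh* of 0.42, *Nefm* of 0.17, *Ina* of 0.35, *Tubb3* of -0.06 and *Nefl* of -0.12. Below 10, *Nefh* had 0.65, *Nefm* 0.29 and *Nefl* -0.05. From 10 to 100 they had 0.59, 0.33 and -0.03, although the *Calb2* medians there were 36.6 and 54.6. Averaged with equal weight over the 4 joint classes of *Lypd1* and *Calb2* with at least 10 cells in each library, *Nefh* had a ratio of 0.57, *Ina* of 0.37, *Nefm* of 0.29, *Nefl* of -0.06 and *Tubb3* of -0.14. The triplet then had 0.29, against 0.45 over all cells. *Calb2* was not equal within all of these joint classes. At *Calb2* of 10 to 100 its medians were 45.8 in iCON and 61.1 in iCKO with *Lypd1* under 1. With *Lypd1* of 10 or more they were 17.8 and 47.4.

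The *Nefh* share was similar along the *Calb2* axis within a library and differed between the libraries in every class. The *Nefh* share at rising *Calb2* was 33.9%, 34.5% and 34.1% in iCON and 41.9%, 41.5% and 40.9% in iCKO. By rising *Lypd1* it was 34.3%, 35.4% and 33.9% in iCON and 41.5%, 40.9% and 40.4% in iCKO. The differences in these 6 classes lay between 5.52 and 8.02 points. The light chain did vary with the axis, from 35.5% of the triplet at low *Calb2* to 31.9% at high *Calb2* in iCON and from 27.8% to 25.5% in iCKO, and the medium chain varied in the opposite sense, from 30.6% to 34.0% and from 30.3% to 33.6%.

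**Figure D3:**
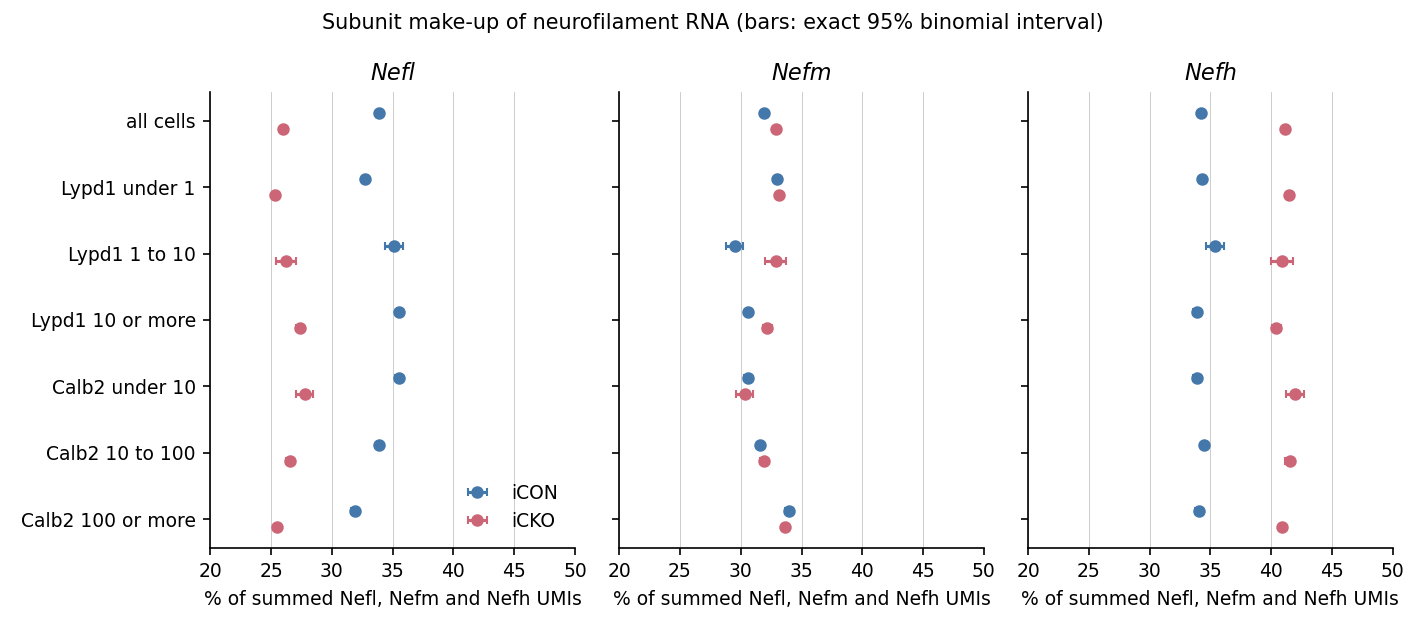
Share of each neurofilament subunit in the summed *Nefl*, *Nefm* and *Nefh* UMIs (x axis, percent, from 20 to 50), over all cells and in classes of *Lypd1* and of *Calb2* given in UMIs per 10000, for iCON and iCKO. Points are shares of summed UMIs and bars exact 95% binomial intervals; the iCKO points lie left of iCON for *Nefl* and right for *Nefh* in all 7 rows, while those for *Nefm* lie within 3.40 points of each other.

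Over the thinned cells the chains went together to different degrees. Spearman's rho between *Nefm* and *Nefh* was 0.70 over iCON cells and 0.61 over iCKO cells, 0.60 and 0.56 between *Nefl* and *Nefm*, and 0.46 and 0.33 between *Nefl* and *Nefh*. *Ina* was more loosely tied to the summed triplet (0.28 and 0.34), and *Tubb3* had 0.14 and -0.14 with it. Without the cells of high type II marker RNA, *Tubb3* and the triplet had -0.045 over 424 iCON cells and -0.20 over 398 iCKO cells, so the sign in iCON turned. *Nefl* and *Nefh* then had 0.37 and 0.30, *Nefl* and *Nefm* 0.54 in both, *Nefm* and *Nefh* 0.67 and 0.59, and *Ina* and the triplet 0.27 and 0.32. These describe cells of 1 library that share its preparation and total, over 454 and 405 cells where no cells are left out, and are not replicated. *Calb2* correlated with *Nefm* at 0.58 in iCON and 0.50 in iCKO, with *Nefh* at 0.52 and 0.43 and with *Nefl* at 0.43 and 0.39. Without the type II marker cells these were 0.53 and 0.48, 0.45 and 0.40, and 0.36 in both.

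The 5 genes most like the summed triplet over iCON cells included both large microtubule-associated proteins of axons. Spearman's rho of *Map1a* was 0.64 in either library, that of *Map1b* 0.63 in iCON and 0.59 in iCKO, *Calb2* 0.60 and 0.54, *Zfp804a* 0.52 and 0.49 and *B3gat1*, a glycan-synthesis enzyme, 0.50 and 0.36. For *Tubb3* the most similar genes were another tubulin, *Tubb4b* (0.48 and 0.44), then *Stmn3*, *Mdh1*, *Rab3a* and *Cox6b1*, with 0.42 to 0.46 in iCON and 0.11 to 0.20 in iCKO. *Tubb3* and these 4 were lower in the cells of high type II marker RNA of iCON than in its other cells, *Stmn3* with 12.4 against 38.6 per 10000. There were 30 such cells in iCON and 7 in iCKO, and without them the 4 genes had 0.29 to 0.34 and 0.061 to 0.16. *Tubb4b* then had 0.48 and 0.44. The genes most like *Gap43* included *Rph3a*, *Lin7a*, *Rps27a* and *Rpl35a*, with 0.31 to 0.34 in iCON and 0.08 to 0.19 in iCKO, correlations that rest on sparse *Gap43* counts and are given as a ranking only. Each of these had a higher mean in the cells of high type II marker RNA of iCON than in the other iCON cells, *Rph3a* with 14.4 against 0.829 per 10000. Without those cells the 4 genes had 0.088 to 0.12 in iCON and -0.045 to 0.090 in iCKO. The 5 genes most like the triplet then had 0.45 to 0.60 and 0.33 to 0.62.

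Cells of high type II marker RNA had a different cytoskeletal profile. They were 30 iCON cells (6.49%) and 7 iCKO cells (1.72%) in which *Prph*, *Gata3*, *Th*, *Plk5*, *Smad3* and *Etv4* summed to at least 2 per 10000, a limit chosen after the values were seen and within a gap that held 0 cells from 2 to 5. Their summed triplet was 63.4 (SD 18.4) in iCON, against 133 (SD 32.5) in the other 432 iCON cells, a log2 ratio of -1.07. In iCKO it was 79.0 (SD 15.1) against 178 (SD 34.1). *Tubb3* was 3.49 (SD 1.27) against 12.3 (SD 3.40) in iCON, a ratio of -1.80. The medians were 3.47 and 12.1, and the ranges of 1.13 to 6.30 and 3.36 to 25.6 overlapped. In iCKO *Tubb3* was 2.60 (SD 1.17) against 11.3 (SD 3.07). *Ina* differed less, with 2.42 against 3.09 in iCON. The *Nefh* share of these cells' triplet was 32.0% in the 30 iCON cells (30.8 to 33.2). It was 49.1% (46.2 to 52.0) in the 7 iCKO cells, from 1184 UMIs.

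*Gap43* went the other way. Its mean was 0.812 per 10000 (SD 0.568) in the 30 iCON cells and 0.0322 (SD 0.0996) in the others, and 1.36 (SD 0.994) in the 7 iCKO cells and 0.0277 (SD 0.0980) in the others. These 37 cells held 54.1% of all *Gap43* UMIs of iCON, 79 of 146, and 34.5% of those of iCKO, 20 of 58. After thinning to equal depth a *Gap43* UMI was present in 76.7% of the type II marker cells of iCON (57.7 to 90.1) and in 5.66% of the other cells (3.66 to 8.31), against 86.7% and 11.6% before thinning at median depths of 31229 and 50564.5 UMIs. The ribosomal protein genes among its nearest genes move with the same cells, and many genes separate these cells from the rest: in iCON 15.7% of genes past the minimum were higher past the fold and 32.7% lower, so the lower *Nefl*, *Nefm*, *Nefh* and *Tubb3*, 4 of the 6 genes, stand among a large background.

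**Figure D4:**
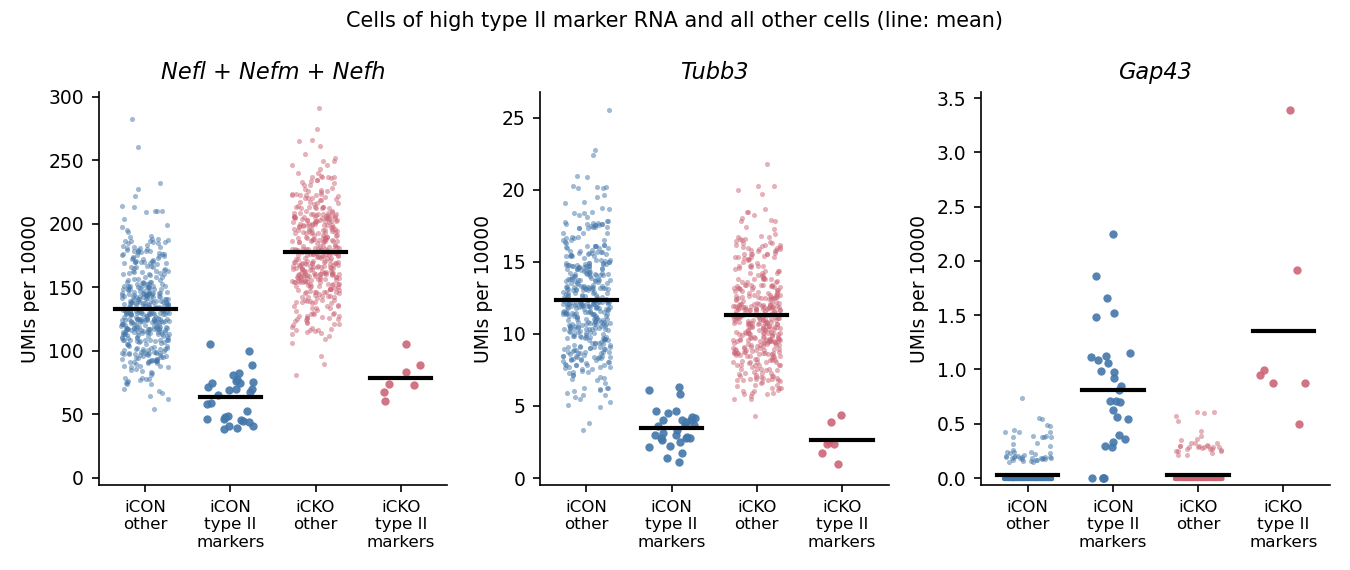
Summed *Nefl*, *Nefm* and *Nefh*, *Tubb3* and *Gap43* (y axes, UMIs per 10000, linear) in cells of high type II marker RNA and in all other cells of iCON and iCKO. Points are cells and lines means; the triplet and *Tubb3* are lower in the marker cells of both libraries (63.4 against 133 and 3.49 against 12.3 in iCON), and *Gap43* is higher (0.812 against 0.0322).

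Because these cells were scarcer in iCKO, the library comparison was repeated without them. The triplet then had a log2 ratio of 0.41, *Nefh* of 0.67, *Nefm* of 0.46, *Ina* of 0.50, *Nefl* of 0.04 and *Tubb3* of -0.13. *Gap43* had -0.08, with 67 and 38 UMIs, in place of -0.40. The *Nefh* share differed by 6.87 points.

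Sex-linked RNA and myelin-gene RNA, which also differed between the libraries, were each used to divide the cells. In *Xist* cells the triplet had a ratio of 0.57 and in Y-linked cells of 0.27, *Nefh* had 0.81 and 0.51, *Nefm* 0.64 and 0.28, and *Nefl* 0.17 and -0.02. The *Nefh* share differed by 6.58 and 5.85 points. The cells of high type II marker RNA, low in the triplet, were all *Xist* cells in iCON (30) and all Y-linked cells in iCKO (7). Without them the triplet had 0.48 and 0.34 in these classes, *Nefh* had 0.71 and 0.56, *Nefm* 0.55 and 0.36, and *Nefl* 0.093 and 0.054. In cells of low myelin-gene RNA the triplet had 0.41 and in the others 0.43, and the *Nefh* share differed by 6.77 and 7.11 points. Over the thinned cells the rho between myelin-gene RNA and the triplet was -0.29 in each library. Without the cells of high type II marker RNA it was -0.45 over 424 iCON cells and -0.33 over 398 iCKO cells. Their part in the lower triplet level of some cells was not tested.

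**Figure D5:**
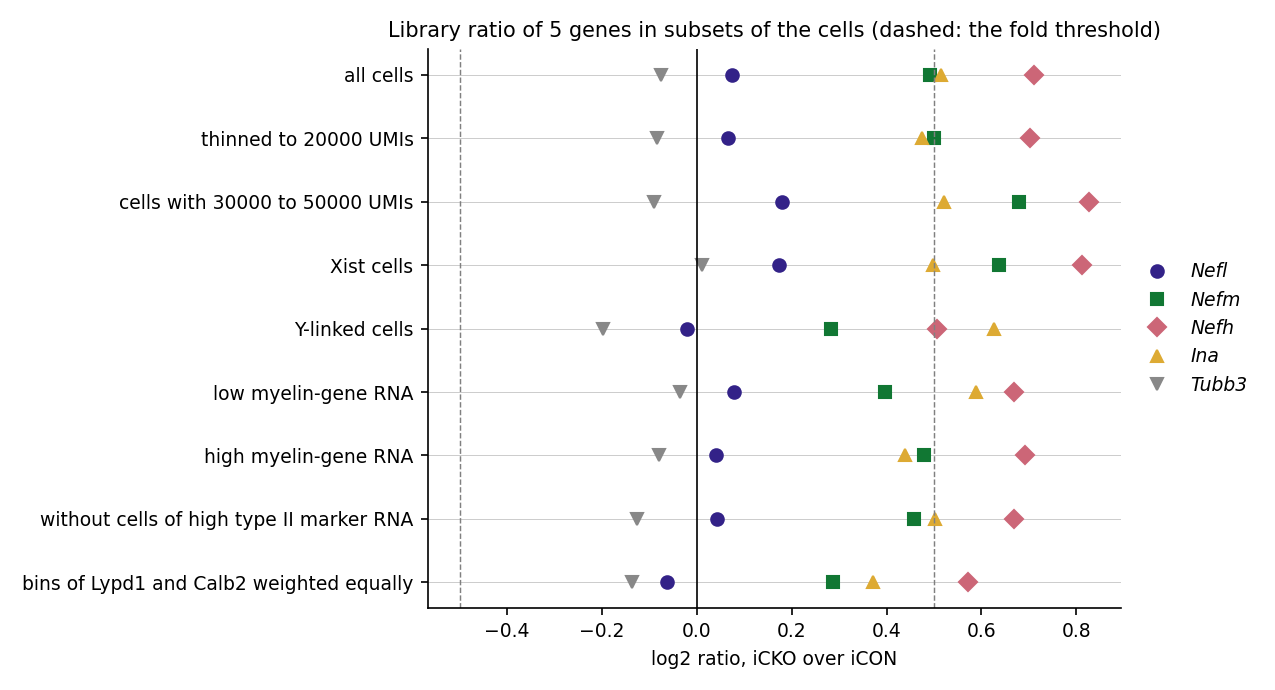
Log2 ratio of the iCKO over the iCON mean (x axis) for *Nefl*, *Nefm*, *Nefh*, *Ina* and *Tubb3*, over all cells and in 8 subsets or settings (rows). Dashed lines mark the fold threshold of 0.5. *Nefh* lies to the right of it in all 9 rows (0.51 to 0.83), *Tubb3* lies near 0 (-0.20 to 0.01), and *Nefl* is on both sides of 0. The class of highest *Calb2*, where *Nefh* had 0.42, is not among the rows.

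Other genes of the axonal cytoskeleton were read from lists of 88 genes, of which 83 were listed and 65 passed the minimum. Their median log2 ratio was 0.11. Of the 65, 1 gene was lower past the fold, beside 2.74% of all genes past the minimum. That gene was *Vim*, an intermediate filament gene of glia and mesenchymal cells, with 1.01 per 10000 in iCON and 0.681 in iCKO, or -0.53 on the log2 scale. The 7 myelin genes were all lower in iCKO. The summed fibroblast markers averaged 1.04 per 10000 in iCON cells and 0.787 in iCKO cells, with 3 of 4 lower. The summed satellite glia markers averaged 12.7 and 12.9, also with 3 of 4 lower. The part of any of these lists in the level of *Vim* was not tested.

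By group, all 9 spectrin and ankyrin genes past the minimum had a ratio above 0, with a median of 0.27. The 3 linkers of filaments had a median of 0.35, from 0.02 for *Macf1* to 0.39 for *Dst*, which ties neurofilaments to other filaments. The 12 motor genes of axonal transport had a median of 0.20, with *Dync1h1*, the dynein heavy chain, highest at 0.43. The 6 kinase and turnover genes had a median of 0.14, and the 18 microtubule-associated genes of 0.09, from -0.44 for *Stmn1* to 0.37 for *Map6*. The 9 tubulin genes other than *Tubb3* had a median of -0.03, from -0.37 for *Tubb2a* to 0.21 for *Tubb4a*, and the 6 growth and injury genes of -0.20. The linker, motor, kinase and turnover, microtubule-associated, tubulin and growth and injury groups held 0 genes past the fold. Over all genes past the minimum, 1.62% were higher and 2.74% lower past the fold. Of the intermediate filament list *Vim* and *Lmna* (-0.21) passed the minimum.

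The reference promoter table held 2 of the 6 genes, *Ina* and *Tubb3*. Neither window, 250 bases before to 50 after the start, contained the Runx letters TGTGGT or the TATA letters TATAAA on either strand, letters found in 16.9% and 14.2% of all 27025 promoters of that length. That says only that these letters are not in these windows.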

How the data were processed

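Single-cell 3′ RNA libraries (10x Genomics, v3) of 2 groups, 1 library each, were used. Per the submitters' processing notes the tools included Cell Ranger and Seurat and the build mm10; versions and filters are not given in the sources used here. The authors deposited 1 table of expression values on a natural log scale; its unit was settled from the values as the natural log of 1 plus CPM. Back-transformed, each of the 869 cells summed to 1000000, and 100% of nonzero values were whole multiples of the cell's smallest step (tolerance 1e-06), so whole UMIs were recovered. The deposited annotation, another kind of value, is a text label that places each barcode in a library; 0 barcodes were in both libraries. Doublets were not called here; cells above 75000 UMIs were left out in an alternative.

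A level is the mean over cells of UMIs per 10000. Ratios are log2 of iCKO over iCON means with a pseudocount of 0.05, and past the fold means an absolute ratio of at least 0.5. Intervals of ratios are of summed UMIs without the pseudocount. With 1 library per group no test, p-value or standard error was computed. The calculation was tested on simulated data. Thinning was random with a fixed seed, to 20000 UMIs per cell; 8 iCON and 2 iCKO cells were too shallow. The members, lists and settings were chosen with earlier results of these data known. Besides the members, genes named are list genes past the fold, ends of a list's range and *Lmna* (these chosen after their values were seen), and the 5 genes with the highest Spearman correlation to the triplet, *Tubb3* and *Gap43* over thinned iCON cells. Some genes and a sequence that these rules select are not reported here. Coding sequences and positions are from GENCODE M21 (GRCm38), promoters from RefSeq (GRCm38.p6). Python 3.11.15, numpy 2.4.6, pandas 2.3.3, scipy 1.17.1 and matplotlib 3.10.9 were used.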

Additional observations from a re-analysis of the deposited data

Results flagged for a closer look

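The *Gap43* ratio between the libraries had opposite signs in cells of different sex-linked RNA. It was -1.23 on the log2 scale in *Xist* cells, with 123 UMIs in iCON and 32 in iCKO, and 1.40 in Y-linked cells, with 22 and 26 UMIs. The difference between the signs was not tested. All 30 cells of high type II marker RNA in iCON were *Xist* cells and 0 were Y-linked, and all 7 in iCKO were Y-linked and 0 were *Xist* cells. These cells were 11.9% of iCON *Xist* cells and 8.54% of iCKO Y-linked cells. Without these cells the *Gap43* ratios were -0.23 (*Xist*) and 0.10 (Y-linked).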

How the results depend on the processing

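No paired analysis was possible because each group has 1 library. With 1 library per group no result has a test, and no library could be left out. The triplet ratio (0.45) was positive in all 18 alternatives: 0.59 in cells of 30000 to 50000 UMIs, 0.57 in *Xist* cells, 0.27 in Y-linked cells, 0.41 at low and 0.43 at high myelin-gene RNA, 0.41 without type II marker cells, 0.29 with equal weight for the marker classes and 0.42 from summed UMIs. In the same order the median over the 6 genes (0.28) was 0.35, 0.34, 0.39, 0.24, 0.24, 0.25, 0.18 and 0.25, and 0.27 with a pseudocount of 0.5. It had no value as a median over cells, since *Gap43* had a median of 0. The *Nefh* share difference (6.95 points) was 6.46 in the depth window, 6.58 in *Xist* cells, 5.85 in Y-linked cells and 7.67 with equal weights, and within counting error of 6.95 in 8 others. The count higher past the fold ran from 1 to 3 of the 6 genes. *Nefh* passed in each setting, *Ina* in 11 of the 18, *Nefm* in 5 and *Gap43* in Y-linked cells. The single *Calb2* classes are not among the 18 alternatives. In the highest of them the *Nefh* ratio was 0.42, under the fold, and the triplet ratio was 0.18. *Gap43* was lower past the fold in the depth window, in *Xist* cells, at low myelin-gene RNA and with a pseudocount of 0.01. The share of all genes past the fold is given for the main setting only, so these counts have no matching share in the alternatives. In the main setting with no minimum, 0.977% of the 14425 genes were higher past the fold and 2.41% lower.

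Signs reversed for *Nefl* in Y-linked cells (-0.021) and with equal weights (-0.064), for *Tubb3* in *Xist* cells (0.011), for *Gap43* in Y-linked cells (1.40) and with equal weights (0.068), and for the *Nefm* share at low myelin-gene RNA (-0.35 points). The cause was not tested. The iCON *Calb2* contrast of the triplet over all cells (0.65) was 0.53 with halved and 0.68 with doubled edges, 0.64 thinned, 0.67 in *Xist* cells, 0.72 and 0.60 at low and high myelin-gene RNA and 0.53 without type II marker cells. In iCKO (0.51) it was 0.45 with halved edges, 0.35 in *Xist* cells, 0.86 in Y-linked cells, 0.56 at low myelin-gene RNA and 0.38 without type II marker cells. The *Lypd1* contrast in iCON (-0.21) was -0.13 in *Xist* cells, -0.30 in Y-linked cells, -0.023 and -0.23 at low and high myelin-gene RNA and -0.31 without type II marker cells. In iCKO (-0.17) it was -0.11 at low myelin-gene RNA and -0.19 without type II marker cells. Leaving out type II marker cells, alone or with sex-linked RNA, was added after the data were seen. In *Xist* cells without them the triplet ratio was 0.48, the *Nefh* share difference 6.45 points, the *Calb2* contrast 0.48 in iCON and 0.35 in iCKO, and the iCON *Lypd1* contrast -0.31. In Y-linked cells without them the triplet ratio was 0.34, the median over the 6 genes 0.23, the *Nefh* share difference 5.57 points, the *Gap43* ratio 0.10 (a reversed sign), the iCKO *Calb2* contrast 0.54 and the *Lypd1* contrasts -0.30 in iCON and -0.27 in iCKO.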
